A study of Mus musculus with 26 samples.

Results

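A set of 10 genes that move calcium in the arterial wall were followed in bulk RNA sequencing of mouse mesenteric arteries, the vessels that supply the gut. They were taken by symbol from the deposited table of normalized counts, and all 10 were found among its 21031 genes. Of these, 4 encode subunits of voltage-gated calcium channels, namely Cacna1c, Cacna1h, Cacnb2 and Cacna2d1. Itpr1 and Ryr2 encode the release channels of the intracellular store, and Atp2a2 encodes the pump that refills it. Stim1 and Orai1 encode the sensor and the pore of store-operated entry, and Ano1 encodes a chloride channel that calcium opens.

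The study asked what pannexin 1, a membrane channel encoded by Panx1, and residues of it that can be phosphorylated contribute. The 26 libraries come from male mice of 8 weeks and fall into 8 groups. A global Panx1 KO (3 libraries) was set against WT arteries (3). Arteries with the Y198F change, genotype Y198F+/+ (3), were set against Y198F-/- controls (3), those with S205A, genotype S205A+/+ (4), against S205A-/- controls (4), and those with Y308F, genotype Y308F+/+ (3), against Y308F-/- controls (3). In these labels +/+ marks the mutant allele and -/- its absence. The controls were littermates or WT animals, and the strain is not given in the sources used here. The labels call the knockout global and name no promoter or Cre driver for any group, so every cell type of the vessel may be affected. The design text gives 3 vascular trees per genotype, while both S205A groups hold 4 libraries. Where libraries of a group shared an animal or a preparation is not stated, so p-values measure the spread between these libraries.

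In arterial smooth muscle, depolarization opens L-type channels, whose pore is encoded by Cacna1c, and the calcium that enters drives contraction. Inositol trisphosphate and ryanodine receptors release calcium from the sarcoplasmic reticulum, either as waves that add to contraction or as local sparks that open potassium channels and relax the muscle. When the store empties, STIM proteins in its membrane open ORAI channels in the plasma membrane, a route that also serves endothelial cells. Calcium also opens the chloride channel encoded by Ano1, which depolarizes the muscle further.

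All 10 genes lie on the reference chromosomes of build GRCm39, and their values are counts over all annotated exons. Cacna1c (ENSMUSG00000051331) spans chr6:118564201-119173851 on the minus strand and Cacna1h (ENSMUSG00000024112) chr17:25593259-25652764, also minus. Cacnb2 (ENSMUSG00000057914) spans chr2:14607899-14994127 and Cacna2d1 (ENSMUSG00000040118) chr5:16139372-16579509, both on the plus strand. Itpr1 (ENSMUSG00000030102) lies at chr6:108190048-108528070 on the plus strand, Ryr2 (ENSMUSG00000021313) at chr13:11567988-12121870 on the minus strand, and Atp2a2 (ENSMUSG00000029467) at chr5:122591575-122640903 on the minus strand. Stim1 (ENSMUSG00000030987) lies at chr7:101916979-102086526 and Orai1 (ENSMUSG00000049686) at chr5:123153043-123168535, both on the plus strand, and Ano1 (ENSMUSG00000031075) at chr7:144142278-144305711 on the minus strand. Exons of other genes cover 30.3% of the exon length of Atp2a2, in part those of Anapc7, so its counts are uncertain, since the sources used here do not say whether reads were counted by strand. The same share was 8.55% for Cacnb2, between 0.248% and 3.43% for Ano1, Orai1, Cacna1h, Itpr1 and Ryr2, and 0 for Cacna1c, Cacna2d1 and Stim1.

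The promoters of 4 of them are shown because, as described further on, the transcripts of Cacna1c and Cacna2d1 varied together across the libraries, and Stim1 and Orai1 are the sensor and pore of store-operated entry, whose relation to them and to 5 other genes is given there. Each runs from 250 bases before to 50 bases after the start of the canonical transcript of GENCODE vM39 in GRCm39, 5′ to 3′ on the gene's strand, with every GGGCGG or its complement CCGCCC (the core of the GC box that SP family factors bind) in capitals. They lie at chr6:119084887-119085186 (Cacna1c, minus strand, a start inside the gene's full span), chr5:16139122-16139421 (Cacna2d1, plus), chr7:101916729-101917028 (Stim1, plus) and chr5:123152793-123153092 (Orai1, plus).
Cacna1c: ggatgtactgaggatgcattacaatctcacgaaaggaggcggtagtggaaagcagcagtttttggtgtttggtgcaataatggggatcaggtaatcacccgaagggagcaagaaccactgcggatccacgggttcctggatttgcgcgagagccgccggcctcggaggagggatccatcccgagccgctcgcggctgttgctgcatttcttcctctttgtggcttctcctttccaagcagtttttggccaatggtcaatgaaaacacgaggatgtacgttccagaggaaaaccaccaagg
Cacna2d1: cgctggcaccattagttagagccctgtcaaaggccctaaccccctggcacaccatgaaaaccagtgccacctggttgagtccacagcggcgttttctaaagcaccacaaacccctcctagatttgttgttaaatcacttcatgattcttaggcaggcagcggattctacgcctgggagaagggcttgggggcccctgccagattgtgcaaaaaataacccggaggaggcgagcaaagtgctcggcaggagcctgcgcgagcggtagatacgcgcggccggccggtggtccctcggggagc
Stim1: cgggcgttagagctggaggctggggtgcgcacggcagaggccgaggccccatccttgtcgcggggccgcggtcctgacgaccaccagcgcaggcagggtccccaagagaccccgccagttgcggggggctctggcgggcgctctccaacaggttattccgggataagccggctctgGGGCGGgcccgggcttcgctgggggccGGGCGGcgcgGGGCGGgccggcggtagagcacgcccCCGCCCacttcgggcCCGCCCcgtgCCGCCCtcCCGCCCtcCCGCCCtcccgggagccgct
Orai1: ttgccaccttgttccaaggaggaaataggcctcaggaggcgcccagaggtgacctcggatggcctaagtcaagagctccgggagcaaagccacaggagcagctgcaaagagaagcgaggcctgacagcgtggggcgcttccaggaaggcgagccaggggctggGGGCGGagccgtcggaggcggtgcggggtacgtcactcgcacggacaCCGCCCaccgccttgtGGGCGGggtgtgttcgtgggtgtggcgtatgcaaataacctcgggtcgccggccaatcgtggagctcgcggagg
The windows of Stim1 and Orai1 hold 8 and 3 matches, and those of Cacna1c and Cacna2d1 hold 0. Over all 10 genes, 5 had at least 1 match on either strand (Cacna1h with 6, Atp2a2 and Ano1 with 4 each, besides Stim1 and Orai1), against 42.5% of 21757 promoters of the same length. The CArG box, the serum response element of many smooth muscle genes, was searched on both strands and had no match in the 10 windows, against 1.54% of all promoters. TATAAA in the 50 bases before the start, on the gene's strand, was in none of the 10 either, against 3.20% of all promoters. The GC content ran from 40.0% to 80.7%, around a median of 54.3% for all promoters. These matches describe letters in a window and were not tested as binding sites.

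Sequencing depth was 17.3 to 23.6 M counts (M for mega) in 17 libraries and 14.9 to 20.2 M in the 9 libraries whose library name carries a number beginning with 22, called the 22 series here. What that number stands for is not stated. Annotated ribosomal RNA took 0.0831% to 0.139% of counts in the 22 series and 2.32% to 7.09% in the rest. The 22 series holds all 3 Y198F libraries and none of their controls, S205A controls 1 to 3 and S205A libraries 2 to 4. Panx1 had 61 to 96 counts in WT and 11 to 27 in Panx1 KO libraries, which is -2.17 in log2 fold change (SE 0.388) at an adjusted p of 0.250 in edgeR, and S205A control 1, with 16 counts, lay inside the range of the knockout. That library also stood apart in cell type markers. Its endothelial marker sum was 1180 CPM, against 9885 in S205A control 2 and 3179 to 9731 in all other libraries. CPM is a unit scaled to the total count of each library after normalization over all 26 libraries. Markers of smooth muscle were high in every library (10 of 10 genes detected, summed level 24177 to 51308 CPM). Cardiac muscle also uses Ryr2, Atp2a2 and Cacna1c, and 4 of its 6 markers passed the filter on low counts over all libraries, with a summed level of 3.14 to 19.9 CPM. Actc1 (14 to 152 counts), Tnni3 (7 to 93) and Tnnt2 (0 to 265) were among them, and Myl7 and Nppa had a median of 0 CPM. Skeletal muscle markers summed to 13.6 to 94.3 CPM, with Acta1 at 219 to 1406 counts and with Myh1 and Myh4 at a median of 0 CPM. The part of other muscle in the values of the 3 genes was not tested.

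Levels per length differed over a wide range in WT arteries. In RPKM, counts per kilobase of exon at equal depth, Atp2a2 stood highest at 59.3 ± 15.2 (SD, n = 3), followed by Itpr1 at 21.9 ± 5.57, Stim1 at 14.4 ± 0.934, Orai1 at 10.2 ± 1.03 and Cacna1c at 8.22 ± 0.836. Ryr2 at 5.17 ± 1.5, Cacna1h at 5.03 ± 1.20, Cacna2d1 at 3.94 ± 0.650 and Cacnb2 at 2.78 ± 0.418 came next, and Ano1 was lowest at 0.986 ± 0.503. Among the 9 neighbouring pairs in this order, the WT ranges overlapped for Ryr2 and Cacna1h and for Cacna1h and Cacna2d1, and 7 pairs did not overlap. Library by library, Cacna1h was above Cacna2d1 in each WT library (4.82, 6.31 and 3.95 against 3.88, 4.62 and 3.32 RPKM). Ryr2 was above Cacna1h in WT 1 and WT 2 and below it in WT 3 (3.56 against 3.95), so that pair cannot be ordered. By group means Atp2a2, Itpr1 and Stim1 held ranks 1 to 3, and Cacnb2 and Ano1 ranks 9 and 10, in all 8 groups. Exon length counted every annotated exon of a gene, so genes with long exons that arteries skip are placed too low.

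Relatives of these genes from 5 lists of calcium-handling genes put the levels in context. The L-type pore Cacna1c had 8.22 RPKM, while the related pore Cacna1d had 0.0544 and the T-type pore Cacna1g 1.03 against 5.03 for Cacna1h. Itpr1 stood above Itpr3 (6.79 RPKM) and Itpr2 (2.89), and Ryr2 (5.17) far above Ryr3 (0.0684) and Ryr1 (0.0230). Stim1 exceeded Stim2 (14.4 against 9.13), whereas Orai1 (10.2) and Orai3 (12.6) were both well above Orai2 (0.497). The related pump Atp2a3 was listed at 202 ± 36.7 RPKM (SD, n = 3), above Atp2a2. The relatives named here were chosen after their values were seen. The 3 most abundant genes of each list were Cacng7, Cacnb3 and Cacnb1 (8.55, 6.26 and 1.35 RPKM) among other voltage-gated channel subunits, and Jph2, Irag1 and Fkbp1a (62.4, 47.6 and 46.0) among store and release genes. Atp2a3, Atp2b4 and Smdt1 (202, 33.9 and 14.5 RPKM) led the pumps, exchangers and mitochondrial uptake genes, Ano6, Ano10 and Lrrc8a (16.1, 5.88 and 4.65) the chloride channels, and Calm2, Mylk and Calm3 (525, 235 and 169) the calcium effectors.

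**Figure D1:**
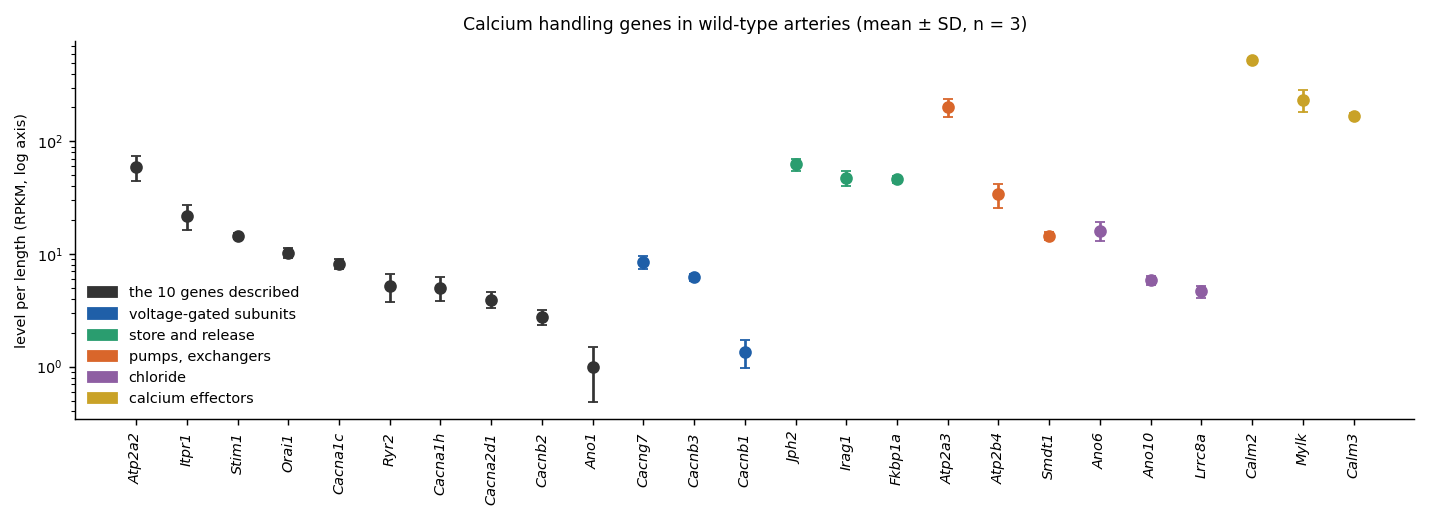
Level per length of each gene in the 3 WT libraries, on a log axis in RPKM, with points for the mean and bars for the SD; colours mark the gene list. Atp2a2 is highest of the 10 genes at 59.3 RPKM and Ano1 lowest at 0.986, and the leading genes of the other lists range from 1.35 (Cacnb1) to 525 (Calm2).

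From here on, levels are again in CPM scaled over all 26 libraries. Stim1 was the steadiest of the genes, from 127 to 209 CPM, and its SD within groups, 0.133 on the log2 scale, was at the 7.0th percentile of all genes. Ano1 was the least steady, from 0.815 to 9.30 CPM (15 to 188 counts), with an SD of 0.835 at the 79.1th percentile, and the median of all genes was 0.348. Between these lay Itpr1 (289 to 532 CPM), Atp2a2 (514 to 1172), Cacna2d1 (61.9 to 147), Cacnb2 (19.5 to 67.0), Cacna1c (117 to 330), Ryr2 (85.8 to 265), Orai1 (17.5 to 67.4) and Cacna1h (35.4 to 191). The highest library was S205A control 1 for 7 of the 10 genes, all but Ryr2, Orai1 and Ano1, and the same library was the lowest for Orai1. Y308F control 1 was the lowest for 5 genes (Cacna1c, Cacna1h, Cacnb2, Cacna2d1 and Ryr2). As a group, the Y308F controls had the lowest mean for 7 genes. In bulk tissue, fewer cells of a type and less RNA per cell cannot be told apart.

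**Figure D2:**
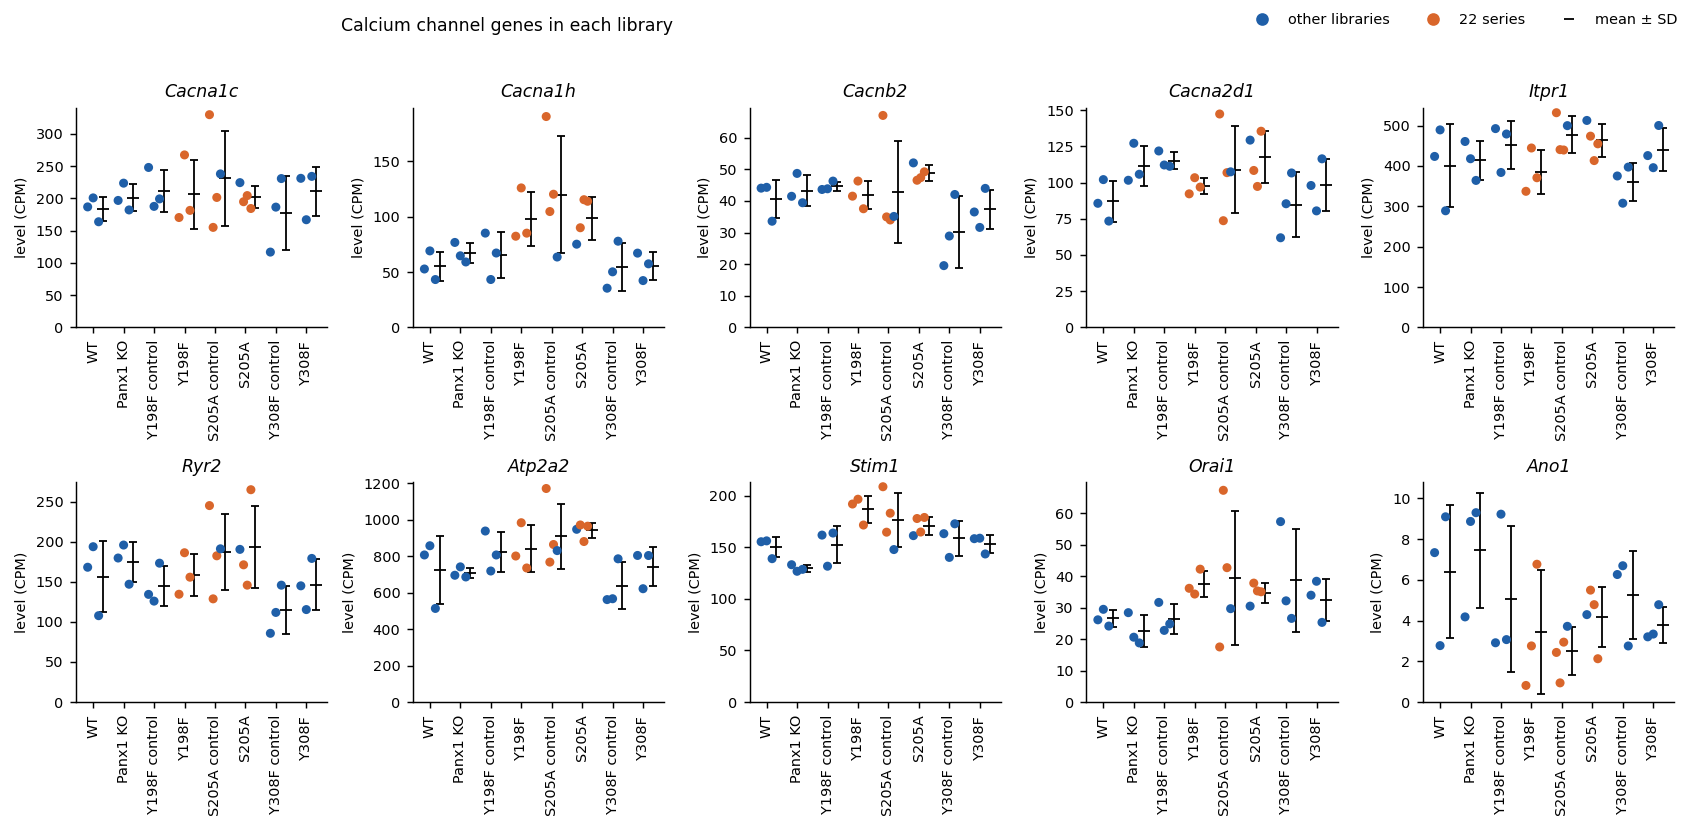
Level of each gene in each library in CPM, by group, with the mean and SD of the group in black; orange points belong to the 22 series and blue points to the other libraries. S205A control 1 is the highest point for 7 genes and the lowest for Orai1, and Cacna1h is 82.4 CPM or more in all 9 orange points.

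In knockout arteries none of the 10 genes passed the edgeR quasi-likelihood test over all genes (adjusted p from 0.396 to 0.984), where 5 of 16193 genes, 0.0309%, passed. Cacna2d1, whose alpha-2-delta subunit carries channels to the membrane, had 101.6, 127 and 106 CPM in the Panx1 KO libraries and 85.7, 102 and 73.4 in WT. On this scaling KO 1 and WT 2 were nearly equal, and on the scaling of the 6 libraries alone the groups did not overlap. The log2 fold change was 0.38 (SE 0.141), 1.30-fold with a 95% interval of 1.04 to 1.62, at an adjusted p of 0.396 in edgeR. Stim1 had 133, 127 and 129 CPM in the knockout and 155, 156 and 139 in WT. All 3 knockout libraries were below all 3 WT libraries, at a log2 difference of -0.19 (SE 0.0973, edgeR adjusted p = 0.503). Such separation, in either direction, was found for 2 of the 10 genes and for 18.5% of all genes, so it does not set them apart.

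The L-type pore gene Cacna1c had 197, 224 and 182 CPM in the knockout and 187, 201 and 164 in WT, with overlapping groups, at 0.15 on the log2 scale (SE 0.122, edgeR adjusted p = 0.685). Its interval, 0.916-fold to 1.34-fold, bounds what a change could be at this number of libraries. Of the 10 genes, 9 had intervals that lay within 2-fold in both directions, and that of Ano1 reached 2.50-fold higher. The direction was positive for 7 genes, with a median log2 fold change of 0.13 beside 0.01 over all genes tested. Most of these genes varied together across libraries, as described further on, so their signs are not separate observations. Orai1 (28.4, 20.6 and 18.8 CPM against 26.2, 29.5 and 24.2) and Atp2a2 (695, 742 and 686 against 807, 857 and 514) overlapped between the groups. The smooth muscle marker genes had log2 fold changes below 0 for 10 of 10 genes in this comparison, none past the threshold, and summed to 24177 to 31028 CPM in the knockout and 25632 to 41449 in WT. Skeletal muscle markers were below 0 for 4 of 4 genes, with sums of 13.6 to 20.3 CPM against 22.4 to 34.5, without overlap. Adipocyte markers were below 0 for 7 of 7 genes (median -1.55) and erythroid markers for 5 of 5 (-2.88), and macrophage markers were above 0 for 6 of 6 (0.51), 0 of them past the threshold. Whether these cells took part in the values was not tested.

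**Figure D3:**
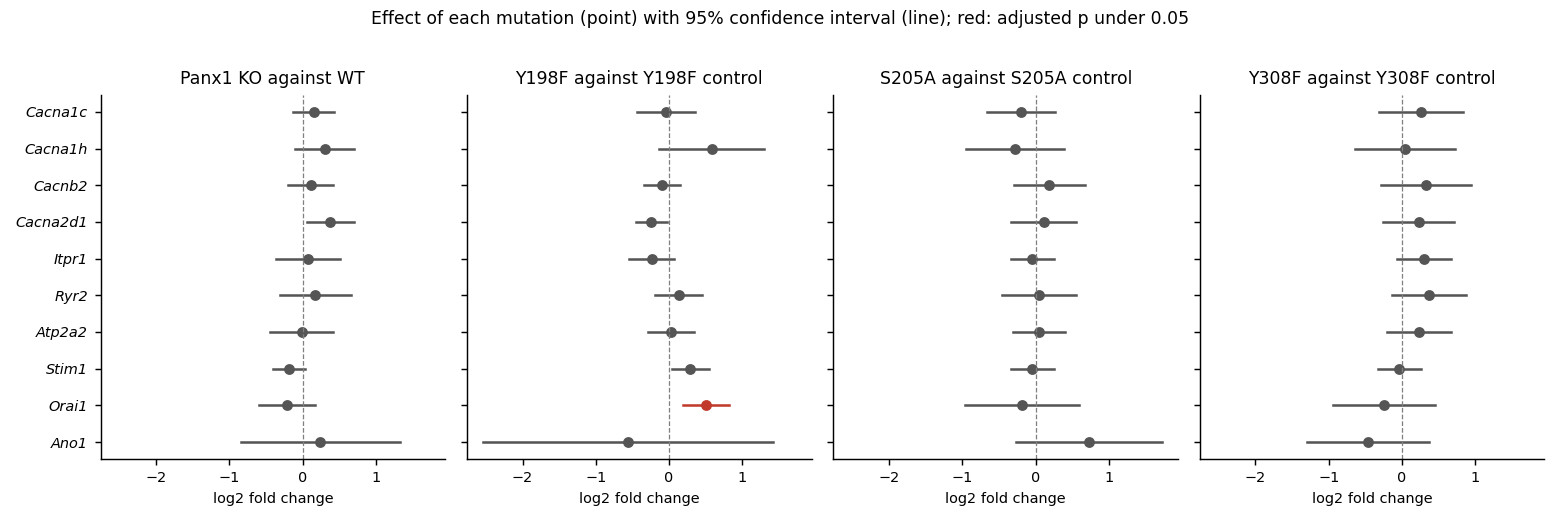
Log2 fold change of each gene in the 4 comparisons of mutant with control, with its 95% confidence interval from edgeR as a line; red marks an adjusted p under 0.05. The one red entry is Orai1 in the Y198F comparison, at 0.50, and the widest intervals are those of Ano1.

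In the Y198F comparison 1 of the 10 genes passed the test, Orai1, and 15.0% of all 16050 genes tested did (9.55% as higher), so this count is near the background. Orai1, the pore of store-operated entry, had 36.2, 34.4 and 42.3 CPM in the Y198F libraries and 31.7, 22.8 and 24.9 in the controls. Every mutant library was above every control. The log2 fold change was 0.50 (SE 0.145), 1.42-fold with an interval of 1.14 to 1.76, at an adjusted p of 0.0387 in edgeR. It stayed past the threshold in 1 of the 6 fits that left out a library (without control 1, 0.0218) and not in the other 5 (0.0543 to 0.165), and with all 8 groups in one fit the edgeR adjusted p was 0.398.

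The Y198F libraries all belong to the 22 series and their controls do not, so the mutation and the series cannot be told apart in this comparison. Set against the 3 S205A controls of the 22 series instead, with 17.5, 67.4 and 42.7 CPM, Orai1 stood at -0.18 on the log2 scale (edgeR adjusted p = 1). With the series as a term over all 8 groups the value was 0.13 (edgeR adjusted p = 1). The endothelial marker sum was higher in the Y198F libraries, 5013 to 5441 CPM against 3898 to 4974 in the controls, with 6 of 8 genes above 0 in log2 fold change and 1 of them past the threshold (Tie1). The fibroblast sum was lower, also without overlap, at 3055 to 4231 CPM against 4442 to 6064, with 7 of 8 genes below 0, a median log2 fold change of -0.75 and 0 past the threshold. Adipocyte markers were above 0 for 7 of the 7 genes tested, 0 of them past the threshold, and their sums overlapped, at 564 to 2258 CPM against 696 to 777. Smooth muscle markers had 2 genes past the threshold as higher (Tagln at 1.14 and Smtn at 0.54) and 1 as lower (Lmod1 at -0.48), all on the log2 scale, with overlapping sums of 28972 to 38648 CPM against 29976 to 34338. Of the neural and glial markers S100b passed as lower, at -0.89. Erythroid (5 of 5, median 1.55), lymphoid (3 of 3) and gut epithelium markers (2 of 2) were above 0 and interstitial Cajal markers (3 of 3, median -0.96) below it, 0 of them past the threshold. The part of these markers in the Orai1 value was not tested.

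Stim1, the store sensor, had 192, 197 and 172 CPM in Y198F and 162, 132 and 164 in the controls, again without overlap, at 0.29 on the log2 scale (SE 0.115, edgeR adjusted p = 0.121). Cacna2d1 went the other way without overlap, 92.2, 103 and 96.9 CPM against 122, 112 and 111, at -0.25 (SE 0.0965, edgeR adjusted p = 0.114). Non-overlapping groups were thus seen for 3 of the 10 genes and for 34.2% of all genes. Cacna1h, the T-type pore, had 82.4, 126 and 85.2 CPM against 85.2, 43.3 and 67.2, at 0.58 (SE 0.292, edgeR adjusted p = 0.264, and 0.0492 in DESeq2). Against the S205A controls of the 22 series the same gene had -0.50 (edgeR adjusted p = 1). Cacna1c, Cacnb2, Itpr1, Ryr2 and Atp2a2 had log2 fold changes between -0.24 (Itpr1) and 0.13 (Ryr2), and Ano1 had -0.56 with an interval from 0.171-fold to 2.67-fold. The median over the 10 genes was -0.01, beside -0.00282 over all genes.

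Within the S205A line, where each group has libraries of both kinds, the 22 series could be set against the other libraries with the genotype as a term. There 902 of 15709 genes, 5.74%, passed the edgeR test and 0 of the 10 genes did. Cacna1h was nearest, at 0.80 on the log2 scale (SE 0.254, edgeR adjusted p = 0.114). DESeq2, which called 1336 of all genes, gave it an adjusted p of 0.0381, and edgeR without S205A control 1, which called 1174, gave 0.0271. In the other 7 fits that left out a library its edgeR adjusted p ran from 0.0967 to 0.800, the last without S205A control 4, where 70 genes were called. Over all groups Cacna1h had 82.4 to 191 CPM in the 9 libraries of the 22 series and 35.4 to 85.2 in the other 17. Stim1 had 165 to 209 CPM in the 22 series and 127 to 173 elsewhere, and a series value of 0.22 on the log2 scale within the S205A line (SE 0.123, edgeR adjusted p = 0.364). The ranges of the other genes overlapped broadly between the kinds of library.

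In the S205A comparison 0 of the 10 genes passed, as did 0 of all 15709 genes tested in edgeR (0% called, 451 at an unadjusted p under 0.05). DESeq2 called 47 genes, and 0 of the 10 were among them. Every adjusted p of the 10 genes was 1, and 0 of the 10 had groups without overlap, against 1.77% of all genes. Orai1 had 17.5, 67.4, 42.7 and 29.7 CPM in the controls, while the S205A libraries had 30.5, 37.8, 35.3 and 35.1, all of them inside the control range. The endothelial marker sum had the same order in these controls, 1180, 9885, 4655 and 5550 CPM, except that controls 3 and 4 changed places. Its part in the spread was not tested. Cacnb2, the beta subunit that helps the channel reach the membrane, had 52.0, 46.5, 47.4 and 49.2 CPM in S205A and 67.0, 34.9, 34.0 and 35.1 in the controls. Control 1 lay above every mutant library and the other 3 controls lay below them. Its log2 fold change was 0.19 (SE 0.215), and 0.49 (edgeR adjusted p = 0.670) without control 1.

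Leaving out S205A control 1 turned the sign of Cacna1c, Cacna1h, Itpr1 and Stim1, from -0.19, -0.28, -0.04 and -0.04 to 0.03, 0.04, 0.01 and 0.05. Leaving out control 2 turned that of Cacna2d1, Ryr2, Atp2a2 and Orai1, from 0.11, 0.05, 0.05 and -0.18 to -0.05, -0.10, -0.03 and 0.20. Ryr2 also turned, to -0.14, without S205A 4, the library with its highest level, and Itpr1 without S205A 3, to 0.003. With controls 1 and 2 both left out, an alternative chosen after seeing the data, the 10 log2 fold changes ran from -0.12 (Cacna1c) to 0.50 (Cacnb2), and again 0 passed. Ano1 had the largest value in the line, 0.73 (SE 0.448, interval 0.830-fold to 3.32-fold), from 4.29, 5.50, 4.78 and 2.13 CPM against 2.44, 0.941, 2.94 and 3.72. Fibroblast markers ran higher in S205A libraries (summed level 3249 to 8331 CPM against 2039 to 3017, with 8 of 8 genes above 0 in log2 fold change and 0 past the threshold), and macrophage (6 of 6), erythroid (5 of 5), cardiac (2 of 2) and gut epithelium markers (2 of 2) were above 0 and adipocyte markers (7 of 7) below it, 0 past the threshold. Of the lists with mixed signs, neural and glial markers were above 0 for 5 of 6 genes (median 0.79) and interstitial Cajal markers for 2 of 3 (0.58). Lymphoid and skeletal muscle markers were above 0 for 3 of 4 genes each. Smooth muscle markers were below 0 for 8 of 10 genes and endothelial markers for 6 of 8. Again 0 were past the threshold. The part of all these markers in the values was not tested.

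In the Y308F comparison 0 of the 10 genes passed, and 0 of all 16037 genes did in edgeR (0% called, 706 at an unadjusted p under 0.05; DESeq2 also called 0). The log2 fold change was positive for 7 genes, with a median of 0.23 beside -0.03 over all genes tested. These are the 7 genes that varied together across libraries, as described further on, so their signs are not separate observations. Y308F control 1 was the lowest library for 5 of them. Without it Cacna2d1 went from 0.23 to 0.05 and Ryr2 from 0.37 to 0.20. Neural and glial markers were below 0 for 7 of 7 genes, with sums of 118 to 134 CPM against 138 to 237, without overlap. Macrophage (6 of 6), mesothelium (5 of 5), lymphoid (4 of 4), interstitial Cajal (4 of 4, median -0.36), cardiac (2 of 2) and gut epithelium markers (2 of 2) were below 0 too, 0 of them past the threshold, and the part of these cells in the values was not tested. Itpr1, the inositol trisphosphate receptor, had 426, 396 and 500.1 CPM in Y308F and 375, 307.6 and 397 in the controls by the scaling over all libraries. On the scaling of the 6 libraries alone every mutant library was above every control, and on the scaling over all libraries Y308F 2 lay just under control 3. The change was 0.30 on the log2 scale (SE 0.163, edgeR adjusted p = 0.940), and such separation was found for 1 of the 10 genes and 10.7% of all genes. Ryr2 had 145, 115 and 179 CPM against 85.8, 112 and 146, at 0.37 (SE 0.223, edgeR adjusted p = 0.940).

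Cacnb2 had 36.5, 31.6 and 44.0 CPM in Y308F and 19.5, 28.9 and 42.0 in its controls, at 0.32 (SE 0.265), and Cacna1c had 231, 167 and 234 against 117, 186 and 231, at 0.26 (SE 0.250). Control 1 was the lowest library of both. Without it these values were 0.09 and 0.03, and that of Cacna1h turned from 0.04 to -0.19 and that of Orai1 from -0.24 to 0.17. The same library had an Orai1 level of 57.4 CPM, the second highest of all libraries, and an endothelial marker sum of 9731 CPM. Ano1 had 3.20, 3.34 and 4.78 CPM against 6.26, 6.70 and 2.75, at -0.46 (SE 0.366). Intervals of 9 of the 10 genes lay within 2-fold, and that of Ano1 reached 2.45-fold lower.

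Whether the effect of the 4 mutations differed was tested as 1 question per gene, over all 26 libraries with the series as a term. Of 18715 genes 3 passed the edgeR test (0.0160%), and 0 of the 10 genes did, with an adjusted p of 1 for each and a smallest unadjusted p of 0.414 (Itpr1). Without the series term the smallest edgeR adjusted p of the 10 was 0.313. Of the 10 genes 0 passed in the authors' deposited tables, beside 20 of the 14914 genes listed in the knockout table, 3 of 18991 in the Y198F table, 96 of 19399 in the S205A table and 0 of 21030 in the Y308F table. In those deposited tables their smallest adjusted p was 0.674 in the knockout table (Cacna2d1, log2 fold change 0.37), 0.670 in the Y198F table (Itpr1, -0.33) and 1 in the S205A and Y308F tables. The Y198F table of the authors gives Orai1 a log2 fold change of -0.08 and Cacna1h -0.30. A DESeq2 fit of all libraries that set Y198F against the S205A controls matched that deposited table to within 0.000160 for every gene listed, while one against the labelled Y198F controls differed from it by up to 7.51, and by up to 1.01 for the 10 genes.

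The other calcium-handling genes, 85 in the 5 lists, gave a similar count by comparison. In the knockout 0 of 71 tested passed, in S205A 0 of 64 and in Y308F 0 of 66, by the edgeR test. In the Y198F comparison 12 of 64 passed, 6 higher and 6 lower, where 15.0% of all genes did (9.55% higher and 5.48% lower). Higher were Cacna1a (0.63) and Cacnb3 (0.61) among voltage-gated subunits, the store-operated pore Orai3 (0.50), the pump Atp2a3 (0.45), the mitochondrial exchanger Slc8b1 (0.41) and Ano10 (0.41). Lower were the release channel Ryr3 (-2.68) and the store buffer Casq2 (-2.16), both weakly expressed, and Asph (-0.43), the sodium-calcium exchanger Slc8a1 (-0.53), the kinase Prkca (-0.67) and calmodulin 2, Calm2 (-0.45). Against the S205A controls of the 22 series none of the 11 that could be tested passed. Their log2 fold changes were there 0.38 for Cacna1a, 0.02 for Cacnb3, -0.08 for Orai3, -0.09 for Atp2a3, 0.06 for Slc8b1, -0.06 for Ano10, -1.59 for Casq2, -0.08 for Asph, -0.12 for Slc8a1, 0.17 for Prkca and -0.09 for Calm2. Within the S205A line Orai3 had 0.63 for the series (SE 0.188, edgeR adjusted p = 0.0906).

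A set of 7 of the genes varied together across libraries. The 7, grouped after their correlations were seen, are Cacna1c, Cacna1h, Cacnb2, Cacna2d1, Itpr1, Ryr2 and Atp2a2. Pearson's r of their log2 CPM was positive for all 21 pairs, from 0.54 to 0.88 (median 0.75) over the 17 libraries outside the 22 series and from 0.57 to 0.94 (median 0.76) over the 9 libraries of it. The signs held in both sets without the 2 libraries farthest from the median (lowest r 0.43 and 0.16). These are descriptions, with no test: the points share library, depth and tissue composition, replicates of a group enter together, and 180 relations per set of libraries were computed. The closest pairs were Itpr1 with Atp2a2 (0.88) outside the series and Cacna2d1 with Ryr2 (0.94) within it.

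**Figure D4:**
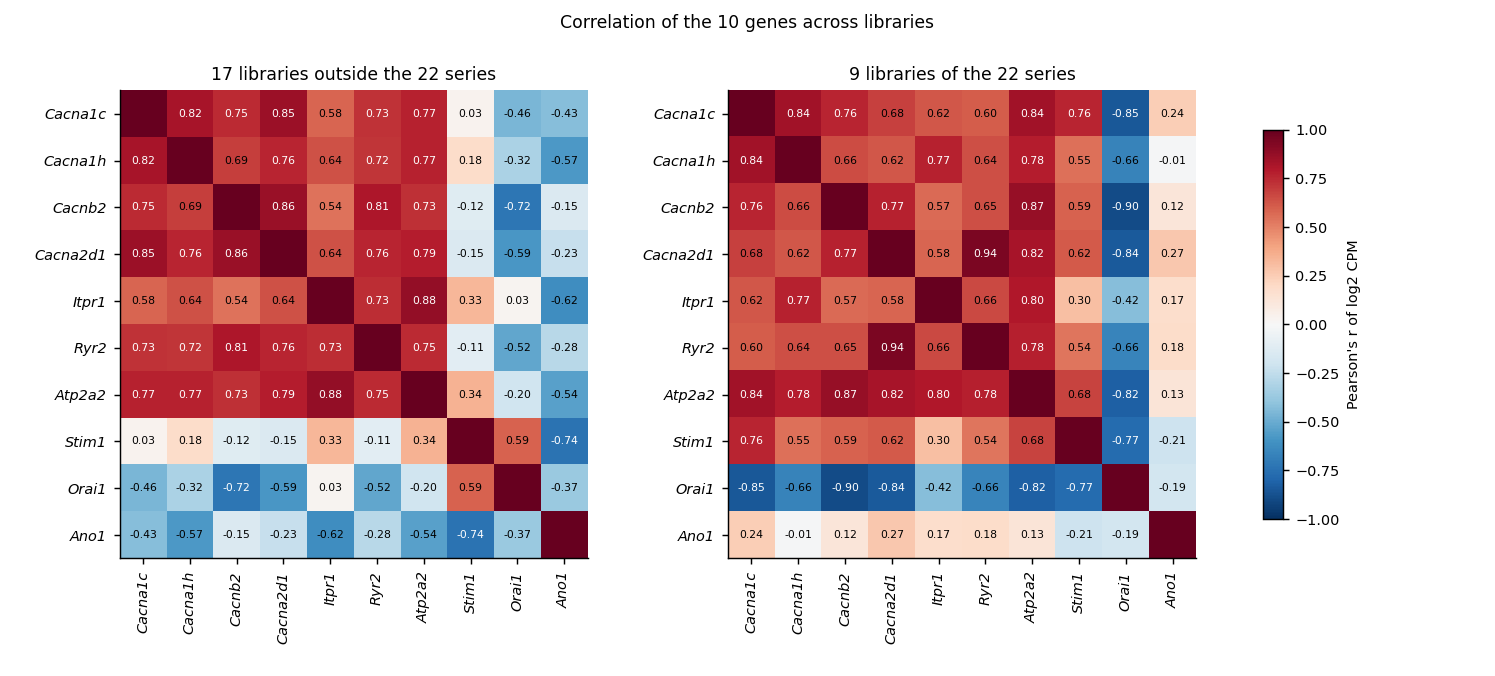
Pearson's r of log2 CPM for every pair of the 10 genes, over the 17 libraries outside the 22 series (left) and the 9 libraries of it (right), with red for positive and blue for negative values. The block of 7 genes at the upper left is positive throughout, from 0.54 to 0.88 and from 0.57 to 0.94, and Orai1 is blue against most of it.

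Orai1 had a median r with the 7 of -0.46 over 17 libraries and -0.82 over 9. Without the 2 farthest libraries its r ran from -0.45 to 0.38 over the rest of the 17, positive for 3 of the 7, so the opposition there rests on those libraries, and from -0.84 to -0.07 in the 22 series. It followed the endothelial markers: r with their summed log2 level was 0.88 (Spearman's rho 0.70) over 17 libraries and 0.69 without the 2 farthest. Over the 9 libraries r was 0.96 (rho 0.67) and 0.26 without the 2 farthest, S205A controls 1 and 2, so that value rests on those libraries. Stim1, its partner, had r of 0.59 with Orai1 over the 17 libraries (0.39 without the 2 farthest) and -0.77 over the 9 (-0.48 without). With the 7 it ranged from -0.15 to 0.34 over the 17 and from 0.30 to 0.76 over the 9. Without the 2 farthest libraries these ranges were -0.11 to 0.52 and -0.02 to 0.50, so the difference between the sets rests on those libraries.

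Ano1 followed the macrophage marker sum, 8.32 to 134 CPM over all libraries, with r of 0.85 (rho 0.91, 0.86 without the 2 farthest) over 17 and 0.82 (rho 0.90, 0.92 without) over 9. It also followed the markers of interstitial cells of Cajal other than itself, pacemaker cells of the gut wall that express the gene strongly, with r of 0.89 (0.85 without the 2 farthest) and 0.69 (0.66 without). That sum ran from 5.34 to 59.4 CPM and was carried mostly by the connexin Gja1, which many cell types express (median 13.5 CPM, against 4.56 for Etv1, 0.943 for Thbs4, 0.743 for Kit and 0.314 for Hcn4). Without Gja1, a sum tried after seeing the data, r was 0.67 (rho 0.61, 0.52 without the 2 farthest) over 17 libraries. Over 9 it was 0.65 (rho 0.73) and 0.13 without the 2 farthest, so it rests on those. Kit, the defining marker of the Cajal cells, had 0 to 85 counts per library. Against the smooth muscle markers Ano1 had r of -0.53 over the 17 libraries and -0.04 over the 9. Which cells its RNA came from was not tested.

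With the smooth muscle marker sum, Atp2a2 had r of 0.65 (rho 0.70, 0.67 without the 2 farthest) over 17 libraries and 0.89 (rho 0.77, 0.73 without) over 9. Cacna1c had 0.62 (rho 0.55, 0.73 without) and 0.76 (rho 0.65, 0.26 without), so its value in the 22 series rests on the 2 farthest libraries. The other 5 of the 7 genes had r from 0.42 (Cacna2d1) to 0.60 (Cacna1h) over 17 libraries and from 0.60 (Itpr1) to 0.90 (Cacna2d1) over 9. Erythroid markers ran against all 7 outside the 22 series (r from -0.61 for Cacna1c to -0.78 for Ryr2) and not within it (-0.25 for Itpr1 to 0.18 for Cacna2d1). The erythroid sum was highest in WT 3 (608 CPM) and Y308F control 1 (520 CPM). WT 3 was the lowest library for Itpr1 and Atp2a2, and Y308F control 1 for the other 5 of the 7 genes. The part of those libraries in r was not tested. What these sums contribute to the shared variation was not tested.

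**Figure D5:**
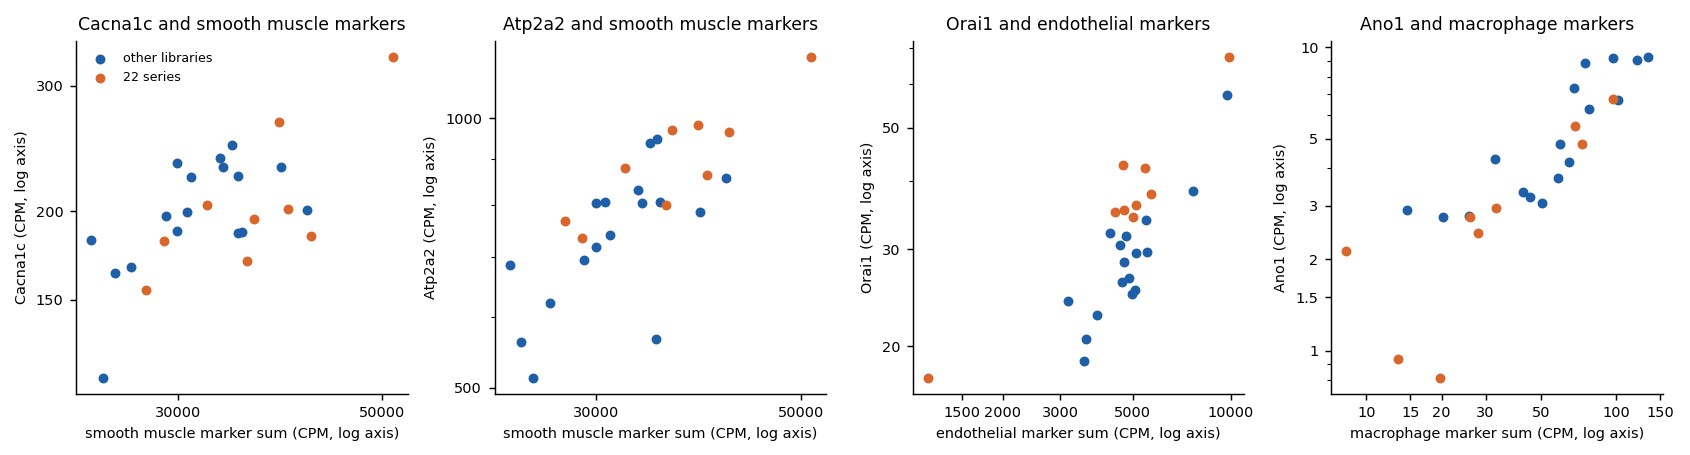
Level of Cacna1c, Atp2a2, Orai1 and Ano1 against the summed level of a cell type's markers in each library, in CPM on log axes; orange points belong to the 22 series and blue points to the other 17 libraries. Orai1 rises from 17.5 to 67.4 CPM as the endothelial sum goes from 1180 to 9885, and Ano1 follows the macrophage sum from 8.32 to 134.

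For each gene the 2 transcripts whose log2 CPM followed it most closely over the 17 libraries were sought among 12895 genes. For Cacna1c they were Ednra, the endothelin A receptor of smooth muscle (r 0.92), and Ror1 (0.91), and for Cacna1h Pdgfc (0.92) and Agtpbp1 (0.90). Cacnb2 was nearest to Plekhg3 (0.96) and Tom1l2 (0.95), and Cacna2d1 to Pde5a, the phosphodiesterase that breaks down cyclic GMP (0.94), and Pi15 (0.94). Itpr1 was nearest to Pcm1 and Pbrm1 (0.96 each), Ryr2 to Garem1 (0.92) and Kat6b (0.88), and Atp2a2 to vinculin, Vcl, and the cyclic GMP-dependent kinase Prkg1 (0.95 each). Of the 10 nearest transcripts, that of Stim1, Stat6, was the loosest (0.85). Orai1 was nearest to Ass1, the argininosuccinate synthase that supplies arginine for nitric oxide (0.95), and to the chemerin receptor Cmklr1 (0.93), and Ano1 to Penk (0.91) and the connexin Gja1 (0.89). In the 9 libraries of the 22 series r was 0.91 and 0.92 for the pair of Orai1 and 0.98 for Itpr1 with Pcm1, but 0.46 for Cacna1h with Pdgfc and 0.45 for Stim1 with Stat6.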

How the data were processed

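Per the labels, poly(A) RNA of mesenteric arteries was read in pairs of 150 bases. By the series' design text, the authors mapped reads to GRCm39 (STAR 2.7.9a), summed them by gene (featureCounts, Rsubread 2.20.0) and compared groups with DESeq2 1.46.0. The annotation release and the use of strand are not given in the sources used here. The authors deposited whole-number counts for 57010 genes, none of them without an identifier. They also deposited a normalized signal for 21031 genes, which the values show to be the counts divided by DESeq2 size factors, for genes with at least 51 counts in all. In addition there are 4 comparison tables by the authors with a base mean signal, log2 fold changes with standard errors, a test score and p-values.

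Identifiers were matched to GENCODE vM39 (56310 of 57010). Deposited counts of each comparison were fitted with edgeR's quasi-likelihood test (R 4.3.3, edgeR 4.0.16, limma 3.58.1), TMM, filterByExpr, robust dispersion and the libraries of that comparison only. P-values were adjusted over all genes tested by the Benjamini-Hochberg method, with a threshold of 0.05. The fit was run on simulated counts whose planted changes were larger than any change of the 10 genes here, without differences in tissue composition. That run does not show how well smaller changes are found. CPM was scaled by TMM over all 26 libraries, RPKM used the merged exon length, and log2 CPM had a prior count of 2. All 10 genes passed the filter on low counts in each comparison.

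The members and lists were chosen with earlier results of these data known. Named besides the 10 genes are Panx1, up to 4 genes per list past the threshold in a comparison, the 3 most abundant of each list in WT arteries, and the 2 closest genes by r among those with a mean log2 CPM of at least 1 (one such gene is not reported here). Marker lists covered smooth muscle, endothelium, fibroblasts, adipocytes, cardiac and skeletal muscle, interstitial cells of Cajal, neurons and glia, macrophages, lymphoid cells, gut epithelium, mesothelium and erythroid cells. Alternatives were DESeq2 1.42.0, edgeR with those size factors, a fit of every gene with a count, one fit over the 8 groups, a replicate block, the library series as a term or a limit, other controls, and each library left out in turn. PCR reads without molecular identifiers are not independent molecules, so precision rests on the spread between libraries.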

Additional observations from a re-analysis of the deposited data

Results flagged for a closer look

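Cacnb2 had 67.0 CPM in S205A control 1, and the next highest of the 4 controls had 35.1. The gap was 0.966 of the range of the group, which marks that library as far from the rest. It was 1 of 20 groups of 4 libraries examined in this way (10 genes in the S205A line), and chance gives about 1 in 20. The same library was the highest for 6 others of the 10 genes.

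Cacna2d1 was higher in the knockout (log2 fold change 0.38) and lower in Y198F (-0.25), in each case with every mutant library on one side of its controls when the 6 libraries of the comparison were scaled alone. Stim1 had the opposite pair of values, -0.19 in the knockout and 0.29 in Y198F, again without overlap. None of these 4 values passed the edgeR test. Groups without overlap, in either direction, were found for 18.5% of all genes in the knockout and 34.2% in Y198F, so such separation is common. How many genes separated in opposite directions in both comparisons was not counted. That pair of effects was not tested alone: the joint test of all 4 mutation effects, which holds the series as a term, gave both genes an edgeR adjusted p of 1 (unadjusted 0.535 for Cacna2d1 and 0.436 for Stim1). In the Y198F comparison the mutation and the library series cannot be told apart.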

How the results depend on the processing

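The counts of the 10 genes past the threshold were 0 in the knockout, S205A and Y308F comparisons and in the joint test of the 4 effects under every alternative run. In Y198F the count of 1 became 2 with DESeq2 (Orai1 and Cacna1h, among 2668 of all genes) and 0 with all 8 groups in one fit, with the replicate block, with the series as a term and against the S205A controls of the 22 series, and in the series contrast the count of 0 became 1 with DESeq2 (Cacna1h, among 1336 of all genes). Over all genes, the knockout count of 5 became 117 with DESeq2, 243 with no filter and 18 with the replicate block. The Y198F count of 2411 became 922 with all 8 groups, 0 with the series as a term and 0 against the S205A controls. The S205A count of 0 became 47 with DESeq2, the Y308F count of 0 became 7 with no filter, and the series count of 902 became 2189 with all 8 groups. The cause of these shifts was not tested.

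Same-numbered libraries deviated together with correlations from -0.09 to 0.31 in the knockout comparison and -0.05 to 0.15 in Y198F. These ran from -0.37 to 0.19 in S205A and -0.17 to 0.08 in Y308F. The same number gave the best match in 3 of 3 pairs in the knockout comparison, 2 of 3 in Y198F, 1 of 4 in S205A and 2 of 3 in Y308F. So few pairs cannot decide whether the numbers pair the libraries. With the replicate block Orai1 in Y198F had 0.51 (edgeR adjusted p = 0.0528), the Y198F count was 1760, the S205A and Y308F counts were 0, that of the joint test was 3, and Atp2a2 in the knockout turned to 0.0186.

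None of the signs that turned passed the test in that alternative. With the series as a term Y198F gave Cacna1c 0.10, Cacna1h -0.21 and Atp2a2 -0.0440. Against the S205A controls it gave Cacna1h -0.50, Ryr2 -0.22, Atp2a2 -0.16, Orai1 -0.18 and Ano1 0.70. Without S205A controls 1 and 2 that line gave Cacna1h 0.10 and Stim1 0.0441.

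Leaving out 1 library at a time, counts over all genes ran from 1 to 5 in the knockout, 908 to 2128 in Y198F (908 without control 3), 0 to 1 in S205A and in Y308F, and 70 (without S205A control 4) to 1174 in the series contrast. Members called ran from 0 to 1 in Y198F and in the series contrast. Log2 fold changes that turned ran, in the knockout, from -0.12 to 0.58 (Ano1), -0.21 to 0.12 (Atp2a2), -0.0106 to 0.18 (Cacnb2), -0.12 to 0.24 (Itpr1) and -0.0347 to 0.36 (Ryr2). In Y198F they ran from -1.49 to 0.19 (Ano1), -0.10 to 0.13 (Atp2a2), -0.27 to 0.0875 (Cacna1c) and -0.0021 to 0.27 (Ryr2), and Orai1 ran from 0.40 to 0.65. In S205A they ran from -0.0330 to 0.20 (Atp2a2), -0.36 to 0.0286 (Cacna1c), -0.49 to 0.0359 (Cacna1h), -0.0457 to 0.29 (Cacna2d1), -0.0951 to 0.0118 (Itpr1), -0.43 to 0.20 (Orai1), -0.14 to 0.21 (Ryr2) and -0.12 to 0.0478 (Stim1). In Y308F they ran from -0.19 to 0.39 (Cacna1h), -0.45 to 0.17 (Orai1) and -0.12 to 0.0322 (Stim1). In the series contrast they ran from -0.0164 to 0.16 (Atp2a2), -0.21 to 0.0136 (Cacna2d1), -0.12 to 0.36 (Cacnb2) and -0.15 to 0.0840 (Ryr2).

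The interval of Ano1, a gene with 15 to 188 counts per library and a within-group SD of 0.835 on the log2 scale, reached beyond 2-fold in all 4 comparisons of mutant with control. How much of that came from depth was not tested.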

Other observations

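The T-type pore gene Cacna1g, named here after its values were seen, had a log2 fold change of 1.74 in S205A (SE 0.470) and -0.95 in Y198F (SE 0.304, edgeR adjusted p = 0.0588). In S205A its edgeR adjusted p was 1, and in the knockout and Y308F its values were -0.19 (SE 0.209) and 0.00 (SE 0.264). It was present at 1.03 RPKM in WT arteries, below Cacna1h.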
